A study of Mus musculus with 27 samples.

Results

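The genes carried by the mouse mitochondrial chromosome were followed in 27 RNA-seq libraries of heart ventricle. They are all genes of the count table whose symbol begins with mt- once Ensembl identifiers were matched to GENCODE M21 on the GRCm38 build. That gave 37 of 55487 genes, of which 13 encode proteins, 2 encode ribosomal RNAs (rRNAs) and 22 encode transfer RNAs (tRNAs).

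The series asked how gain and loss of MBNL1, an RNA-binding protein that controls splicing and transcript stability, alter the postnatal heart. At postnatal day 60 (P60) there were 5 libraries labelled MBNL1 loss-of-function (KO) at 7 days after knockout with 4 control (Ctl) libraries, and 4 labelled KO at 14 days with 3 controls. At P7 there were 4 MBNL1 gain-of-function (Tg) libraries and 3 controls, and at P1 there were 4 controls. The sources used here do not give strain, sex, the means of knockout, the part of Mbnl1 removed or what drives the transgene. Whether libraries of a group came from different mice is not stated either, so every p-value measures the spread between these libraries, part of which may be technical. Each library held 21929347 to 25675115 counts, a depth at which 3 counts equal 0.0958 to 0.188 CPM (counts scaled to a common, TMM-adjusted library size).

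Label checks were mixed. Mbnl1 was higher in the transgenic libraries than in P7 controls (log2 fold change 5.13 ± 0.10, SE), whereas the gene total of Mbnl1 gave 0.05 ± 0.20 (adjusted p = 0.86) in the libraries labelled KO at 7 days and -0.34 ± 0.09 (adjusted p = 0.012) in those labelled KO at 14 days, each against its controls. A gene total cannot show a deletion of part of a gene, and those libraries are therefore called "labelled KO" below. Esr1, the oestrogen receptor gene, had 195 to 1955 CPM in the libraries labelled KO against 0.487 to 1.5 CPM in P60 controls. That difference goes with the label in every P60 library. What follows it and what follows loss of MBNL1 cannot be told apart here. At 7 days, KO-labelled libraries 1 and 5 differed from the other 3 of their group, with Esr1 at 234 and 195 CPM against 650 to 1893 CPM, and the fits, ratios and shares of counts at 7 days were also computed without them. Those values are given where a call or an overlap changed, and for the rRNAs, mt-Te and mt-Tp.

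The mitochondrial chromosome encodes core subunits of respiratory complexes I, III and IV and of ATP synthase (complex V), together with the rRNAs and tRNAs that translate them. Each strand is transcribed as a long precursor, and the tRNAs that lie between the other genes are cut out to release the mRNAs and rRNAs. In ventricle, where contraction draws on oxidative phosphorylation, these transcripts are among the most abundant RNAs. Counts per gene do not separate a mature transcript from an uncut precursor, and because the strand setting of the counting is not known, reads of overlapping genes on opposite strands cannot be told apart.

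The 6 mRNAs of lowest count were set apart from the rest, because the sequence of most of them recurs in the nuclear genome. A block of chromosome 1 (chr1:24611535-24616197, minus strand, 4663 bases, GRCm38) holds 7 annotated pseudogenes that match mitochondrial genes at 99% identity or more. Gm28661 matched mt-Co2, Gm10925 matched mt-Atp6, Gm28437 matched mt-Co3 and Gm10222 matched mt-Nd4l, each over its full length, at 100% identity. Gm28438 matched the full length of mt-Nd3 at 99.71%, while Gm28439 covered 876 bases of mt-Nd4 and Gm29216 covered 483 bases of mt-Co1. The first 60 bases of mt-Nd3 and of mt-Co2, and a stretch of mt-Co1, are shown with their nuclear copies because they show how little sequence separates them; capitals mark the bases that differ, and the lines are read 5′ to 3′ from the GENCODE M21 transcripts.
mt-Nd3, chrM:9459-9518, plus strand: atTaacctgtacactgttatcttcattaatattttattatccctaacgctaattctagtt
Gm28438, chr1:24613060-24613119, minus strand: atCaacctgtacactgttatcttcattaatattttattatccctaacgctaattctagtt
mt-Co1, chrM:6390-6449, plus strand: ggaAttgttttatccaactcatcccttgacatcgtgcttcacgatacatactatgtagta
Gm29216, chr1:24616129-24616188, minus strand: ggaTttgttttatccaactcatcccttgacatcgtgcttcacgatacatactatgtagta
mt-Co2, chrM:7013-7072, plus strand: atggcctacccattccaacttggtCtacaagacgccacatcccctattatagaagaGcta
Gm28661, chr1:24615506-24615565, minus strand: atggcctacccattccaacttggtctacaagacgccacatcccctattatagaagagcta
Gm13341, chr2:22587903-22587962, minus strand: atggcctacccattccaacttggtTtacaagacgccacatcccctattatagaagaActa

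Counted from 1 at the first base of the mitochondrial gene, the differences in these windows were T3C for Gm28438, A1066T for Gm29216, and C25T and G57A for Gm13341, a second copy of mt-Co2. The 5 mRNAs with a full near-identical copy, and mt-Atp8, which shares 43 bases with mt-Atp6, had counts far below those of the other 7 mRNAs for their length. In the P60 controls mt-Co1 averaged 90576 CPM per kilobase, mt-Nd1 49010, mt-Cytb 48735, mt-Nd2 24683, mt-Nd5 22201, mt-Nd4 21590 and mt-Nd6 12314 CPM per kilobase. In the same libraries mt-Co3 averaged 276, mt-Co2 229, mt-Nd3 212, mt-Atp6 171, mt-Nd4l 75 and mt-Atp8 74 CPM per kilobase. The sources used here do not say how reads that match several places were counted. The part of that choice in these low levels was not tested, nor was its part in the levels of mt-Co1 and mt-Nd4, which have partial copies.

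The low mRNAs also scattered more. Their median SD within a group ranged from 0.297 to 1.98 on the log2 scale (median 0.548), against 0.118 to 0.241 (median 0.140) for the other 7 mRNAs. Single libraries jumped: mt-Co2 had 647 CPM in 1 P7 control against 30.3 and 27.5 CPM in the other two, and mt-Co3 had 856 CPM in control library 1 at 7 days against 66.7 to 95.9 CPM in the others. The nuclear copies jumped too, in other libraries. Gm28437 had 25454 counts in library 4 labelled KO at 7 days against a median of 710 over all libraries, and Gm28661 had 6657 counts in control library 4 at 7 days against a median of 583. The results below therefore rest on the 7 abundant mRNAs, the rRNAs and the tRNAs. The tRNAs are 59 to 75 bases long, and the search for copies required at least 100 aligned bases. It could not find a copy of a tRNA, so nuclear copies of tRNAs were not tested. Each count of members with a changed level is also given without the 6 low mRNAs. Counts relative to the mRNA pool include them.

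**Figure D1:**
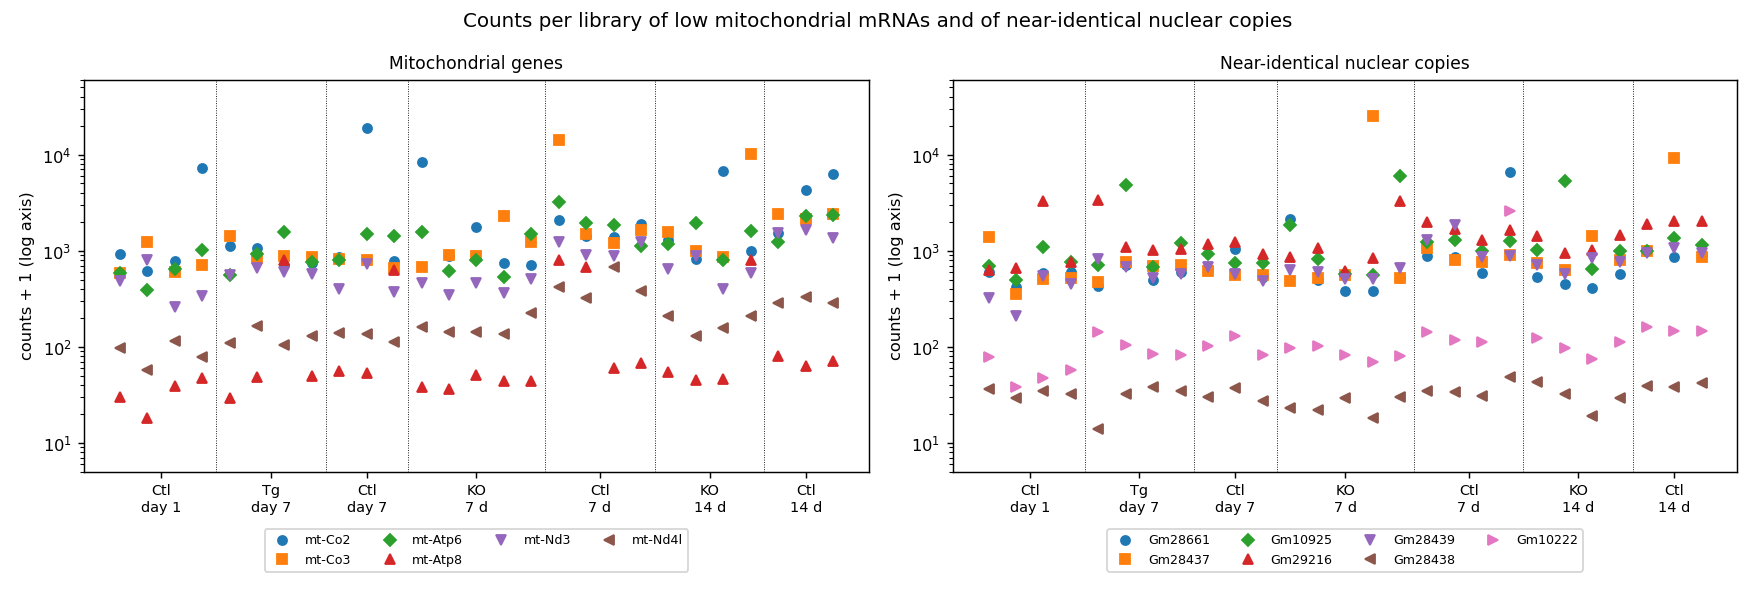
Counts plus 1 (log axis) of the 6 low mRNAs and of the 7 near-identical nuclear copies in each of the 27 libraries, ordered by age and group; each point is 1 library. Most libraries of a gene lie close together, and single libraries such as P7 control 2 with 18831 counts of mt-Co2 or the library labelled KO at 7 days with 25454 counts of Gm28437 lie far above them.

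Of the mitochondrial tRNAs, 14 averaged at least 1 CPM and are named below. The other 8 were lower, and among these mt-Td and mt-Tk had 0 counts in all 27 libraries. In all, 6 of the 37 genes had 7 counts or fewer in every library.

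Mitochondrial transcripts took a smaller share of all counts in the libraries labelled KO. At 7 days the 37 genes held 18.3, 14.7, 15.9, 15.6 and 18.2% of counts in the libraries labelled KO against 28.8, 26.0, 27.1 and 29.2% in controls. At 14 days the shares were 21.6, 18.9, 17.4 and 19.6% in libraries labelled KO against 29.6, 29.5 and 26.3% in controls. The groups did not overlap at either time, and the mean share was 0.596 times that of controls at 7 days and 0.680 times at 14 days. In ventricle tissue, fewer cells rich in mitochondria and less mitochondrial RNA per cell cannot be told apart. The share is reported as a description of the libraries, without a test, as are the shares and summed levels that follow.

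The 3 classes of transcript differed in how far they lay below controls. Messenger RNAs averaged 15.99 ± 1.42% of counts in libraries labelled KO at 7 days against 26.2 ± 1.30% in controls (SD, n = 5 and 4), a ratio of 0.610. The rRNAs averaged 0.530% against 1.49% of counts, a ratio of 0.355, and the tRNAs 0.0378% against 0.0876%, a ratio of 0.431. At 14 days the ratios were 0.701 for mRNAs, 0.358 for rRNAs and 0.399 for tRNAs. Among the mitochondrial counts themselves there were 4.20, 2.70, 2.51, 2.61 and 4.25 rRNA counts per 100 mRNA counts in libraries labelled KO at 7 days, against 5.88, 5.12, 5.59 and 6.13 in controls. Libraries 1 and 5 had the highest values of their group, and still lay below every control. At 14 days the same quantity was 3.17, 3.49, 2.99 and 3.03 in libraries labelled KO against 6.08, 6.38 and 6.15 in controls.

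**Figure D2:**
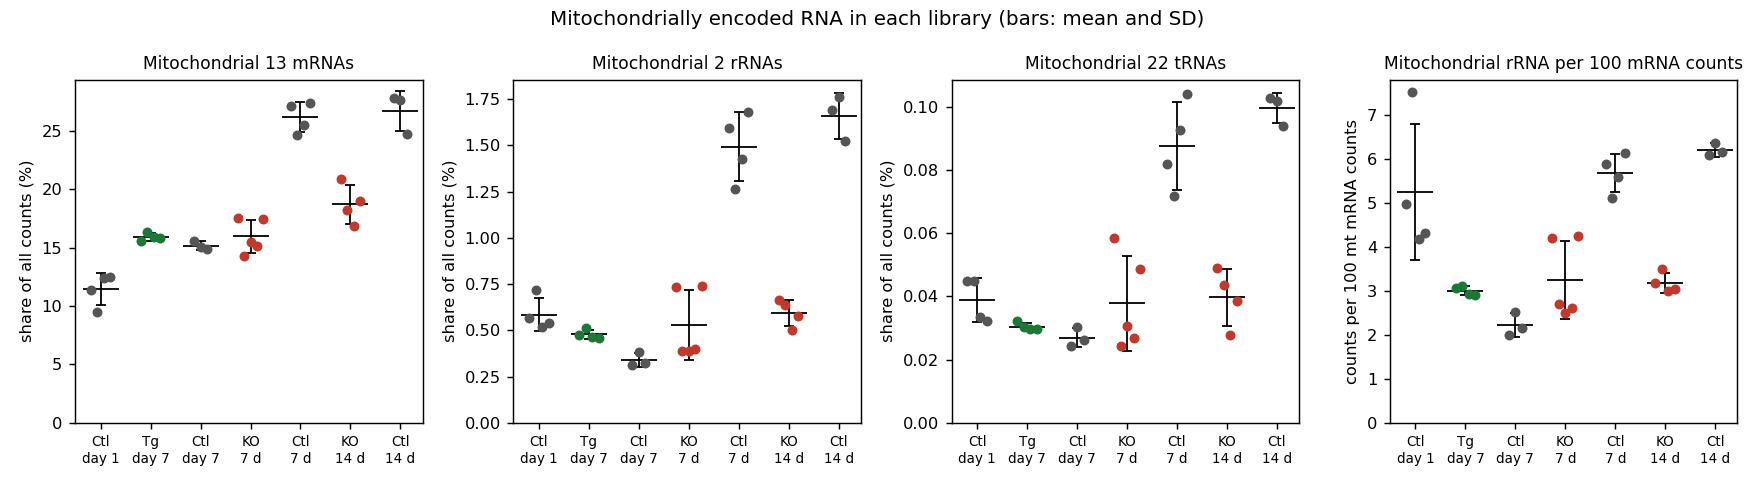
Shares of all counts (percent) taken by mitochondrial mRNAs, rRNAs and tRNAs, and rRNA counts per 100 mRNA counts, by group; dots are libraries and bars show the mean and SD. Libraries labelled KO lie below their own controls in the mRNA, rRNA and tRNA shares, and the rRNA counts per 100 mRNA counts average 3.25 at 7 days and 3.17 at 14 days in libraries labelled KO against 5.68 and 6.20 in their controls.

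Gene by gene, 27 of the 31 mitochondrial genes with enough counts to test were lower in the libraries labelled KO at 7 days than in controls and none was higher (edgeR's quasi-likelihood test, Benjamini-Hochberg adjusted p under 0.05 over 15167 genes). Of all genes tested 50.7% passed, and 24.3% of all genes tested were lower. At 14 days 25 of 31 were lower and none was higher, where 44.2% of all genes passed and 22.4% were lower. Without the 6 low mRNAs, 22 of 25 were lower at each time. Without libraries 1 and 5 labelled KO, 27 members were lower at 7 days as well, with mt-Co2 in place of mt-Co3. The median log2 fold change of the members was -1.72 at 7 days and -1.22 at 14 days, against 0.03 and 0.01 for all genes. Without the 6 low mRNAs the median was -1.60 at 7 days and -1.85 at 14 days.

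The rRNAs form the core of the mitochondrial ribosome and lie just downstream of the main promoter region. mt-Rnr1, the small-subunit rRNA (chrM:70-1024, plus strand), had 1957, 1018, 909, 1070 and 2060 CPM in libraries labelled KO at 7 days, against 5645, 4534, 4968 and 5982 CPM in controls. Its log2 fold change was -1.92 ± 0.26 (SE, adjusted p = 0.00019). mt-Rnr2, the large-subunit rRNA (chrM:1094-2675, plus strand), had 5344, 2661, 2826, 2750 and 5074 CPM against 15882, 11314, 12867 and 16034 CPM, a log2 fold change of -1.92 ± 0.25 (adjusted p = 0.00015). Groups did not overlap for either gene, and libraries 1 and 5 labelled KO held the highest values of their group.

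At 14 days mt-Rnr1 had 1847, 1579, 1410 and 1555 CPM in libraries labelled KO against 5544, 6357 and 5633 CPM in controls (log2 fold change -1.88 ± 0.11, adjusted p = 1e-06). mt-Rnr2 had 5358, 4891, 3642 and 4207 CPM against 17374, 17866 and 13292 CPM (-1.85 ± 0.15, adjusted p = 7.2e-06). With all libraries, the fold changes of both rRNAs at 14 days lay within 1 SE of those at 7 days. Without libraries 1 and 5 labelled KO, the values at 7 days were -2.40 ± 0.12 for mt-Rnr1 and -2.35 ± 0.14 for mt-Rnr2. Both then lay further below controls than at 14 days.

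All 7 abundant mRNAs were lower at both times, by less than the rRNAs. Of complex I, the NADH dehydrogenase, mt-Nd1 (chrM:2751-3707) had 20655, 18085, 20449, 17026 and 19071 CPM in libraries labelled KO at 7 days against 51156, 42826, 45042 and 52906 CPM in controls (log2 fold change -1.34 ± 0.14, adjusted p = 3.2e-05). mt-Nd2 gave -1.29 ± 0.15, mt-Nd4 -0.98 ± 0.13, mt-Nd5 -0.98 ± 0.18 and mt-Nd6, the only protein gene on the minus strand, -1.11 ± 0.22 on the same scale. At 14 days these 5 complex I mRNAs ranged from -1.02 ± 0.16 for mt-Nd2 to -0.64 ± 0.14 for mt-Nd6, all past the threshold.

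mt-Cytb, the cytochrome b of complex III (chrM:14145-15288), had 32805, 24724, 25839, 27650 and 32827 CPM in libraries labelled KO at 7 days against 56351, 50219, 51033 and 58243 CPM in controls. It was lower at both times, with a log2 fold change of -0.92 ± 0.15 (adjusted p = 0.00054) at 7 days and -0.78 ± 0.13 (adjusted p = 0.00074) at 14 days. mt-Co1, the catalytic subunit of cytochrome oxidase in complex IV (chrM:5328-6872), had the highest level for its length. It had 61338, 54492, 56453, 57735 and 60594 CPM in libraries labelled KO at 7 days against 153618, 127253, 121604 and 139989 CPM in controls (log2 fold change -1.23 ± 0.14, adjusted p = 7.7e-05). At 14 days it had 83829, 75599, 64360 and 72122 CPM against 164048, 155574 and 117494 CPM (-0.99 ± 0.14, adjusted p = 0.00026). No library labelled KO reached the lowest control for either gene.

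Of the low mRNAs, mt-Nd3 (-1.85 ± 0.18 at 7 days, -1.74 ± 0.23 at 14 days) and mt-Nd4l (-2.01 ± 0.22 and -1.24 ± 0.19), both of complex I, were lower at both times. For mt-Co2 and mt-Co3 of complex IV and mt-Atp6 and mt-Atp8 of ATP synthase the values turned on few libraries. mt-Co3 passed at 7 days with -2.52 ± 0.75 (adjusted p = 0.017), but gave -0.76 with adjusted p = 0.10 without control library 1. mt-Atp8 had 1.35 to 2.03 CPM in libraries labelled KO at 7 days against 48.0, 37.4, 3.27 and 3.91 CPM in controls (-3.79 ± 0.75), and 33.3 CPM in library 9 labelled KO at 14 days against 1.85 to 2.47 CPM in the other 3, where it did not pass (1.24 ± 0.98). mt-Atp6 was lower at both times (-1.55 ± 0.39 and -0.97 ± 0.29), and at 14 days lost its call without library 6 labelled KO or either of controls 6 and 7 (-0.91, -0.78 and -0.90). With all libraries mt-Co2 passed at neither time (0.06 ± 0.72 and -1.18 ± 0.68). Without libraries 1 and 5 labelled KO, mt-Co2 passed as lower at 7 days (-1.13 ± 0.30) and mt-Co3 did not pass (-2.33 ± 0.91).

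**Figure D3:**
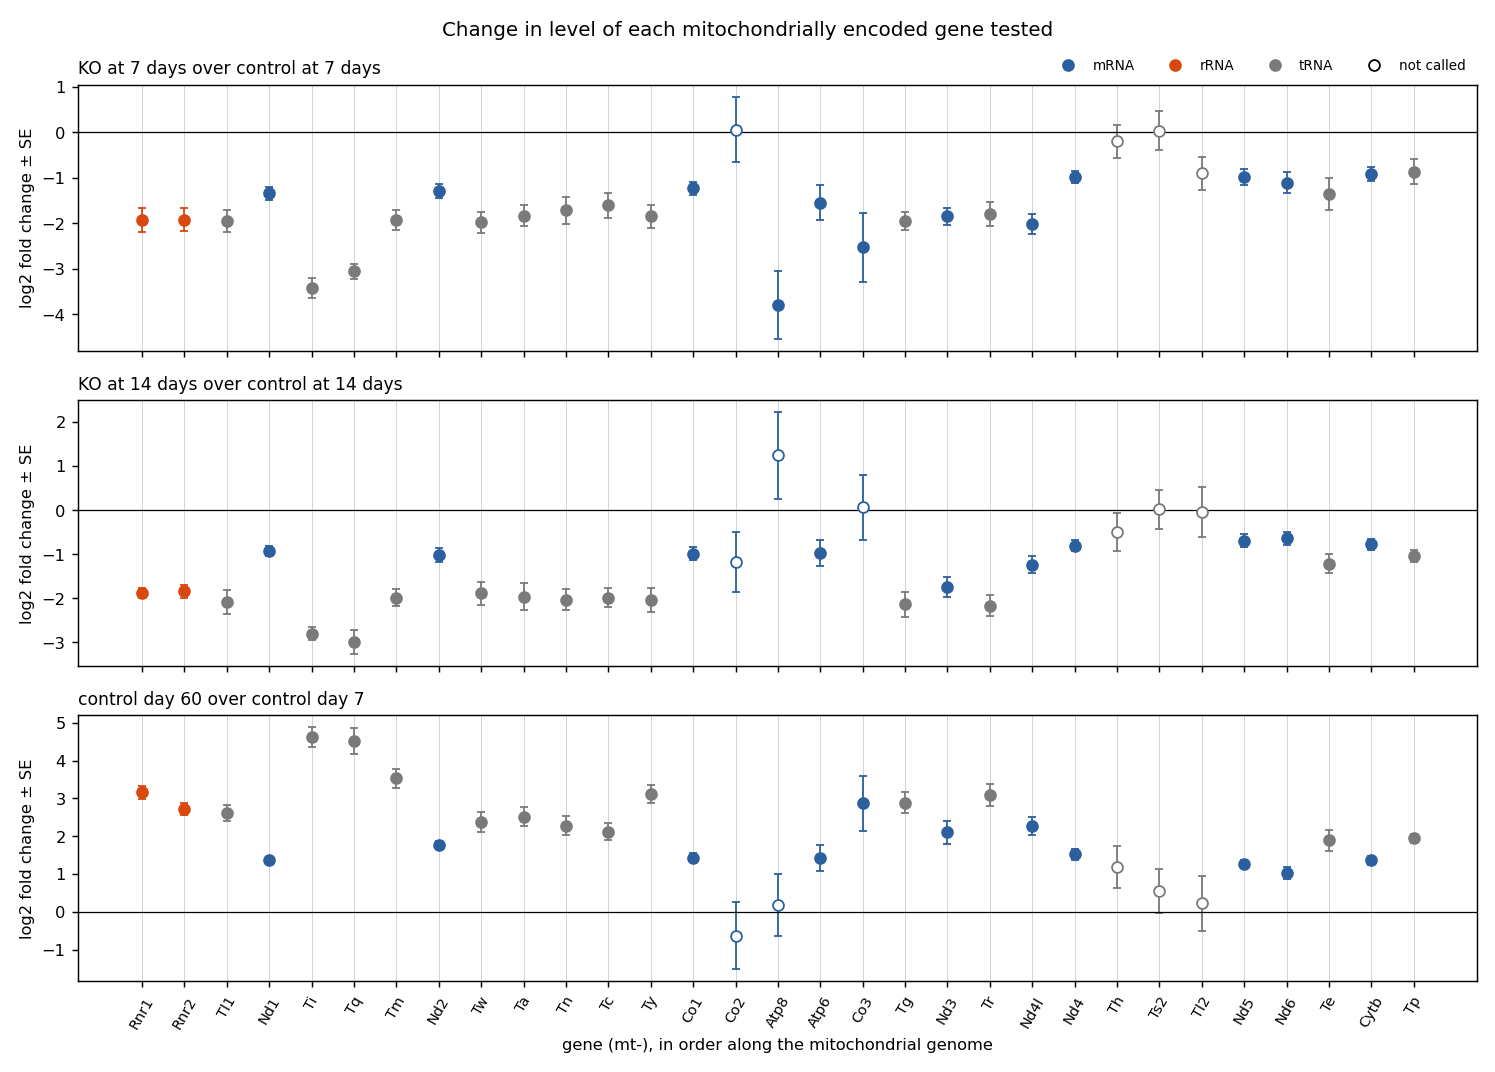
Log2 fold change with SE of each tested mitochondrial gene, in gene order along the chromosome, for libraries labelled KO against controls at 7 and at 14 days and for P60 against P7 controls; open symbols did not pass an adjusted p of 0.05. The rRNAs and most tRNAs lie below the abundant mRNAs in the libraries labelled KO and above them in P60 against P7 controls.

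The transfer RNAs ranged widely. Among the 14 that averaged at least 1 CPM, the lowest fold changes at 7 days belonged to mt-Ti and mt-Tq, the isoleucine and glutamine tRNAs, which face each other on opposite strands between mt-Nd1 and mt-Nd2, with mt-Tm, the methionine tRNA, next to them. mt-Tl1, a leucine tRNA, lies between mt-Rnr2 and mt-Nd1. Their sequences are shown because mt-Ti and mt-Tq had the largest tRNA fold changes in libraries labelled KO and at P60 against P7, mt-Tm is their neighbour, and mt-Tl1 had the lowest fold change at P7 against P1. They are given 5′ to 3′ along each gene's own strand, and capitals mark bases that also belong to a neighbouring gene.
mt-Ti, chrM:3706-3774, plus strand: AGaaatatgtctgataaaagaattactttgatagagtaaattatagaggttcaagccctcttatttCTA
mt-Tq, chrM:3772-3842, minus strand: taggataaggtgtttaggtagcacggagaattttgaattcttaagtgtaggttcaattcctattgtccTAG
mt-Tm, chrM:3845-3913, plus strand: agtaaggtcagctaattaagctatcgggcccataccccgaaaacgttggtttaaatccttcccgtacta
mt-Tl1, chrM:2676-2750, plus strand: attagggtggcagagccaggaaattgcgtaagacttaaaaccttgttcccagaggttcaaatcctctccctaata

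mt-Ti had 14.1, 8.50, 9.71, 11 and 11.2 CPM in libraries labelled KO at 7 days against 79.6, 99.2, 128 and 158 CPM in controls, a log2 fold change of -3.42 ± 0.21 (adjusted p = 3.2e-06). mt-Tq had 4.20, 2.98, 4.51, 3.92 and 3.92 CPM against 27.9, 27.1, 31.9 and 41.5 CPM (-3.05 ± 0.16, adjusted p = 1.7e-06). The 2 genes share the 3 capital bases CTA and TAG above, and reads over that join cannot be assigned to a strand. At 14 days mt-Ti had 22.9, 17.1, 13.8 and 16.6 CPM in libraries labelled KO against 120, 118 and 129 CPM in controls (-2.81 ± 0.15), and mt-Tq gave -2.99 ± 0.27. Neither gene overlapped between groups at either time, and libraries 1 and 5 labelled KO at 7 days did not stand apart in mt-Tq.

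mt-Tm gave -1.92 ± 0.21 at 7 days and -1.99 ± 0.19 at 14 days, and mt-Tl1 -1.94 ± 0.25 and -2.09 ± 0.27. The block of 5 tRNAs between mt-Nd2 and mt-Co1 (mt-Tw, mt-Ta, mt-Tn, mt-Tc and mt-Ty for tryptophan, alanine, asparagine, cysteine and tyrosine) ranged from -1.97 ± 0.23 for mt-Tw to -1.60 ± 0.27 for mt-Tc at 7 days. At 14 days the block ranged from -2.03 ± 0.23 for mt-Tn to -1.89 ± 0.26 for mt-Tw. The glycine and arginine tRNAs mt-Tg and mt-Tr gave -1.95 ± 0.19 and -1.79 ± 0.26 at 7 days. mt-Te and mt-Tp, the glutamate and proline tRNAs near mt-Cytb, moved less when all libraries were used, with -1.35 ± 0.36 and -0.86 ± 0.28. Without libraries 1 and 5 labelled KO they gave -2.03 ± 0.22 and -1.39 ± 0.13. mt-Te overlapped between groups at 7 days only through library 1 labelled KO, with 224 CPM against 209 CPM in the lowest control. The call of mt-Tp at 7 days was lost without control library 1 (-0.71) or 4 (-0.84).

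mt-Th, the histidine tRNA, and mt-Ts2, a serine tRNA, had 14 to 45 and 19 to 89 counts in libraries labelled KO at 7 days against 15 to 25 and 18 to 44 counts in controls, and neither passed (-0.20 ± 0.36 and 0.04 ± 0.43). mt-Tl2, the other leucine tRNA, gave -0.90 ± 0.36 (adjusted p = 0.055). These 3 genes lie side by side between mt-Nd4 and mt-Nd5. mt-Th (mean 0.867 CPM) and mt-Tl2 (mean 0.543 CPM) belong to the 8 low tRNAs and are named here after their values were seen.

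**Figure D4:**
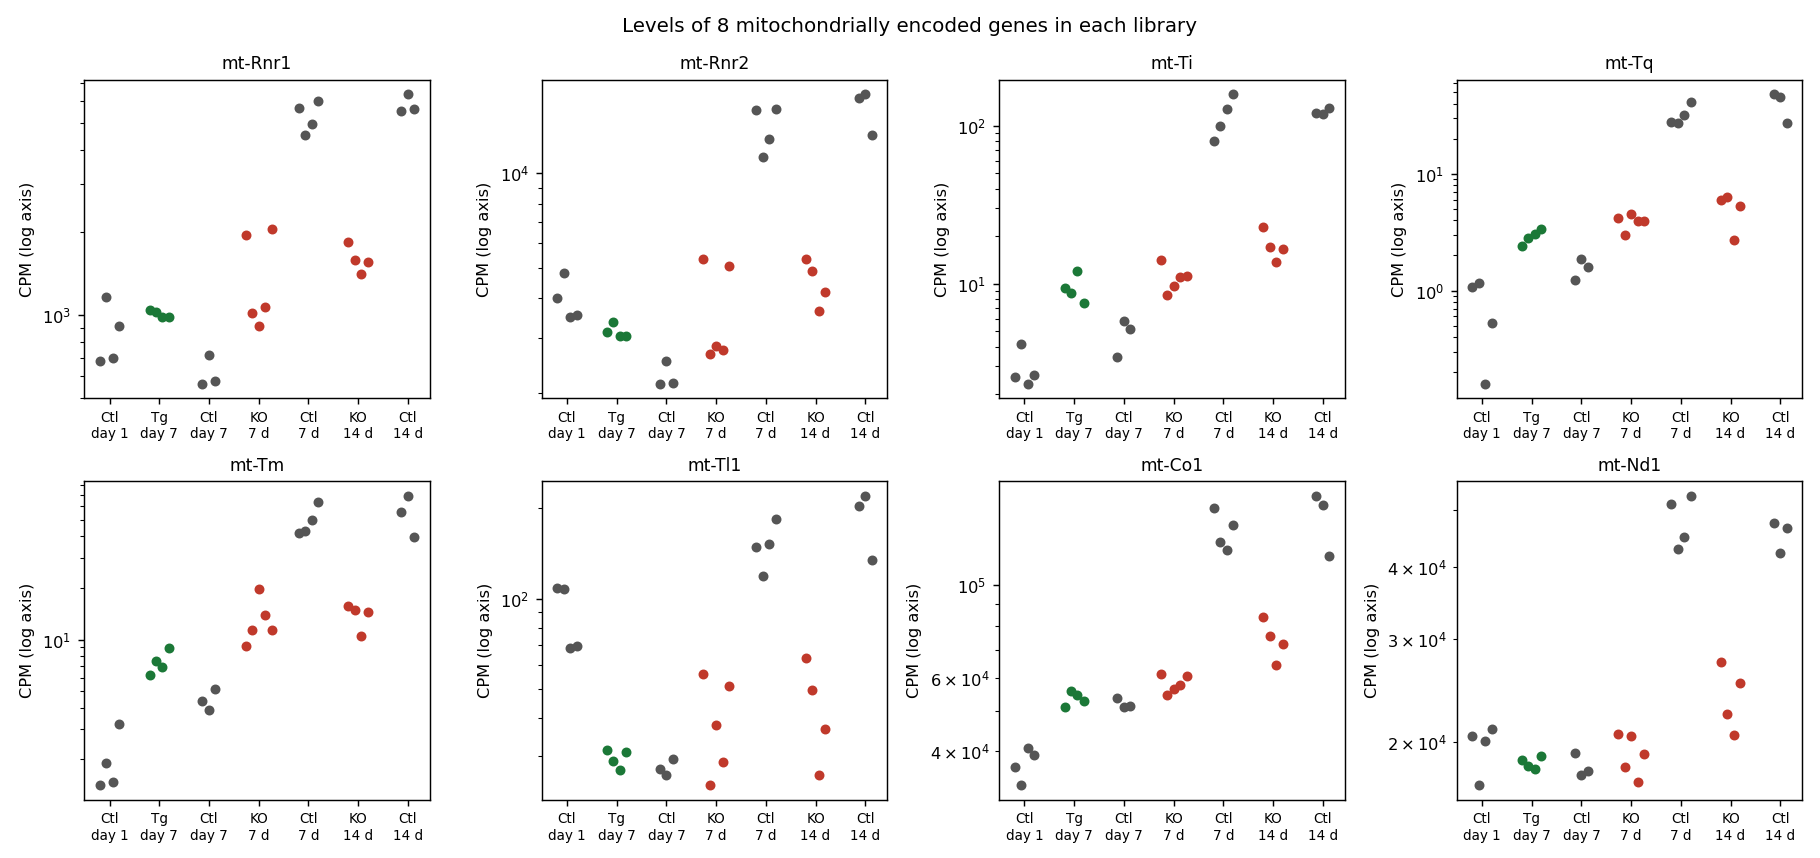
CPM (log axis) of mt-Rnr1, mt-Rnr2, mt-Ti, mt-Tq, mt-Tm, mt-Tl1, mt-Co1 and mt-Nd1 in each library, by group. mt-Ti reaches 79.6 CPM or more in every P60 control and at most 22.9 CPM in every library labelled KO, while mt-Nd1 runs from 17026 to 27389 CPM in libraries labelled KO and from 42236 to 52906 CPM in their controls.

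To ask which transcripts moved apart from the mitochondrial mRNAs as a whole, the same fits were made with the summed counts of the 13 mRNAs in place of the library total. At 7 days 16 members were lower and 2 higher in libraries labelled KO relative to that pool, where 83.5% of all genes passed, nearly all as higher (81.6%), and 1.93% were lower. At 14 days 14 members were lower and 1 higher, where 78.4% of all genes passed and 3.44% were lower. None of the 7 abundant mRNAs passed at either time, with values from -0.19 to 0.22 at 7 days and from -0.15 to 0.22 at 14 days. Both rRNAs were lower, mt-Rnr1 by -0.81 ± 0.20 and -1.0 ± 0.12 and mt-Rnr2 by -0.80 ± 0.19 and -0.96 ± 0.12 at 7 and 14 days. mt-Ti was at -2.30 ± 0.19 and -1.95 ± 0.15, and mt-Tq at -1.91 ± 0.16 and -2.09 ± 0.23.

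Of the 14 named tRNAs, 11 were lower relative to the mRNA pool at each time. The block from mt-Tw to mt-Ty was lower in 5 of 5 genes, from -0.86 to -0.49 at 7 days and from -1.14 to -1.0 at 14 days. At 7 days mt-Tc (-0.49 ± 0.21, adjusted p = 0.049) lost its call when any 1 of 8 of the 9 libraries was left out (-0.52 to -0.37), and mt-Tn (-0.62 ± 0.23) when any of 5 was. mt-Th, one of the 8 low tRNAs, and mt-Ts2 were the 2 higher genes at 7 days (0.94 ± 0.37 and 1.16 ± 0.44). mt-Th lost its call without library 3 or 4 labelled KO or control 1, 2 or 3 (0.56 to 0.95), and mt-Ts2 without library 3 labelled KO or control 1, 2 or 4 (0.69 to 1.18). mt-Nd3 was lower relative to the pool at both times (-0.70 ± 0.13 and -0.85 ± 0.20). Without libraries 1 and 5 labelled KO, an alternative added after seeing the data, 18 members were lower and 2 higher at 7 days. The 2 further lower genes were mt-Te (-0.79) and mt-Atp6 (-0.95). The 1 higher gene at 14 days was mt-Atp8, which gave -0.14 without library 9 labelled KO and also lost its call without control 6 (2.04) or 7 (2.16).

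The single ratio mt-Rnr2 to mt-Co1 showed the same contrast library by library. Its mean log2 value was -4.03 ± 0.44 in libraries labelled KO at 7 days against -3.28 ± 0.15 in controls (SD, n = 5 and 4, exact two-sided permutation p = 0.0159, the smallest this design can give). At 14 days it was -4.04 ± 0.10 against -3.17 ± 0.06 (n = 4 and 3, exact permutation p = 0.0571, again the smallest possible). mt-Rnr2 to mt-Rnr1, in contrast, differed by 0.03 at 7 days and 0.03 at 14 days on the log2 scale, with overlapping groups. mt-Nd1 to mt-Cytb was -0.59 ± 0.19 in libraries labelled KO at 7 days and -0.17 ± 0.04 in controls (exact permutation p = 0.0159), and overlapped at 14 days. Without libraries 1 and 5 labelled KO the mean log2 values at 7 days were -4.36 ± 0.04 for mt-Rnr2 to mt-Co1 and -0.50 ± 0.19 for mt-Nd1 to mt-Cytb. Both still lay apart from the controls (n = 3 and 4, exact permutation p = 0.0571 each, the smallest possible). Over the 25 ratio tests made, none had an adjusted p under 0.05 (smallest 0.0833), and 5 had an unadjusted p under it.

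**Figure D5:**
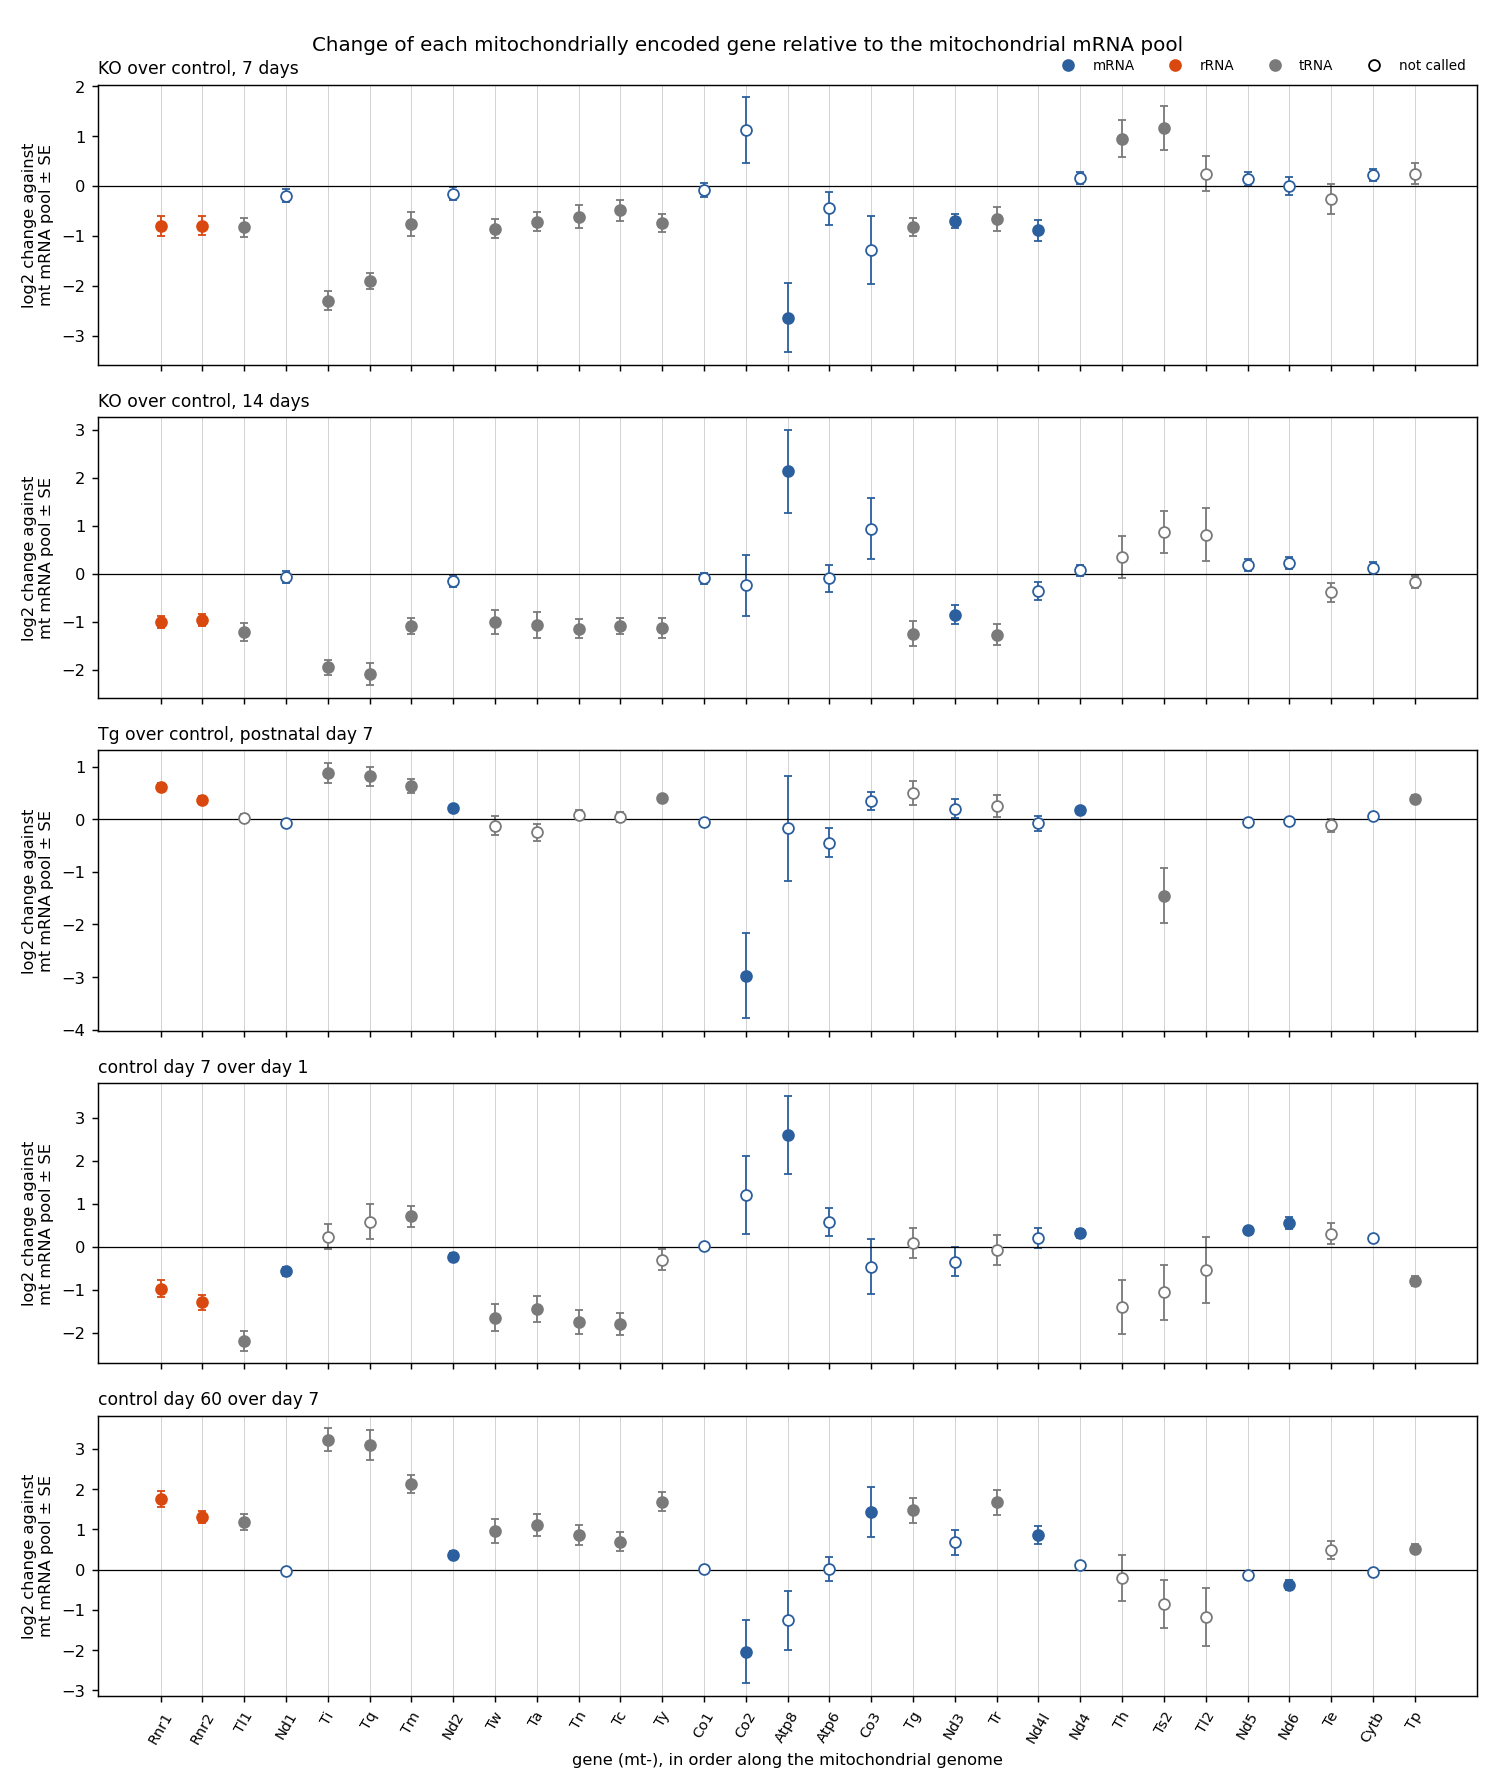
Log2 fold change with SE of each tested mitochondrial gene relative to the summed mitochondrial mRNAs, in gene order, for each of the 5 comparisons; open symbols did not pass an adjusted p of 0.05. The 7 abundant mRNAs lie between -0.19 and 0.22 in libraries labelled KO, with the rRNAs near -0.8 and -1.0 and mt-Ti near -2.30 and -1.95.

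The response at 14 days minus that at 7 days passed for 0 of 31 members, as for 0% of all genes, by edgeR's quasi-likelihood test. Without adjustment 5 members had p under 0.05 (mt-Nd1, mt-Ti, mt-Atp8, mt-Co3 and mt-Nd4l), the smallest adjusted p was 0.21, and DESeq2 called mt-Atp8 as higher. mt-Nd1 differed by 0.43 ± 0.18 and mt-Ti by 0.64 ± 0.28, both less far below controls at 14 days.

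Markers of several cell types moved with these results. Of all genes tested, 26.4% were higher and 24.3% lower at 7 days, and 21.8% were higher and 22.4% lower at 14 days. The summed level of 16 cardiomyocyte markers was 29601 to 61077 CPM in libraries labelled KO at 7 days against 86582 to 92769 CPM in controls, and 61904 to 72281 against 89071 to 95761 CPM at 14 days, with 10 and 8 markers lower and 0 and 2 higher. Fibroblast markers summed to 4553 to 11820 against 1398 to 1699 CPM at 7 days (7 of 11 higher), and macrophage markers to 1218 to 1679 against 456 to 532 CPM (10 of 10 higher). At 14 days 9 of 11 fibroblast and 10 of 10 macrophage markers were higher. Endothelial markers were lower in 8 of 10 at 7 days and 6 of 10 at 14 days. Atrial markers summed to 283 to 2555 against 91.1 to 237 CPM at 7 days (1 of 4 tested higher and 1 lower) and to 3368 to 4226 against 138 to 216 CPM at 14 days (2 of 4 higher). Smooth muscle and pericyte markers summed to 754 to 990 against 1309 to 1412 CPM at 7 days (2 higher and 4 lower of 8) and to 937 to 1091 against 1378 to 1526 CPM at 14 days (2 higher and 2 lower). Of 6 erythroid markers, 6 were lower at 7 days and 1 at 14 days. The atrial calls at 7 days and the smooth muscle and pericyte calls at 14 days lay near the shares over all genes in both directions. The part of cell composition in the fall of mitochondrial transcripts was not tested.

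Both classes were also set against the cardiomyocyte markers. There were 4.47, 2.30, 2.44, 2.40 and 5.67 CPM of mitochondrial mRNA per CPM of cardiomyocyte markers in libraries labelled KO at 7 days, against 4.12, 3.58, 3.67 and 3.87 in controls. The groups overlapped because libraries 1 and 5, which had the lowest cardiomyocyte sums (38854 and 29601 CPM), lay above the controls and the other 3 below. At 14 days the ratio was 3.14, 2.69, 2.38 and 3.07 in libraries labelled KO against 4.23, 3.97 and 3.36 in controls, without overlap. rRNA per cardiomyocyte CPM was 0.188, 0.0622, 0.0612, 0.0626 and 0.241 in libraries labelled KO at 7 days against 0.242, 0.183, 0.205 and 0.237 in controls. Libraries 1 and 5 lay within the range of the controls, and the other 3 lay below it. At 14 days it was 0.0997, 0.0941, 0.0711 and 0.0931 in libraries labelled KO against 0.257, 0.253 and 0.207 in controls, without overlap. Mitochondrial mRNA per CPM of nuclear respiratory subunits was 6.86 ± 1.12 against 6.96 ± 0.459 at 7 days and 7.09 ± 1.06 against 6.91 ± 0.631 at 14 days (SD, n = 5 and 4, then 4 and 3), with overlapping groups.

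Nuclear genes that build the same complexes fell too. Of 73 tested nuclear subunits of complexes I, III, IV and V, 71 were lower in libraries labelled KO at 7 days and 71 at 14 days, with medians of -1.09 and -0.89 against 0.03 and 0.01 for all genes. All 36 of complex I, 9 of complex III and 14 of complex V passed, and 12 of 14 of complex IV did. Among 41 tested genes that transcribe, cut, modify or stabilise mitochondrial RNA, 28 were lower and 3 higher at 7 days (median -0.59) and 25 lower and 3 higher at 14 days (median -0.50). Over all genes, 24.3% were lower and 26.4% higher at 7 days, and 22.4% were lower and 21.8% higher at 14 days.

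Lrpprc, whose protein stabilises mitochondrial mRNAs, had 90.3, 116, 128, 122 and 79.7 CPM in libraries labelled KO at 7 days against 278, 220, 236 and 260 CPM in controls (log2 fold change -1.22 ± 0.15, adjusted p = 9.3e-05), and -1.08 ± 0.10 at 14 days. Polrmt, the mitochondrial RNA polymerase, gave -0.82 ± 0.08 and -0.84 ± 0.10, and Tfam, which packages mitochondrial DNA and starts its transcription, -0.81 ± 0.12 and -0.65 ± 0.09. Hsd17b10, a subunit of mitochondrial RNase P that cuts the 5′ end of tRNAs, gave -1.27 ± 0.09 and -1.23 ± 0.10. Mterf2, of a family that binds mitochondrial DNA, gave -1.71 ± 0.37 and -1.33 ± 0.12.

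Of 11 regulators of mitochondrial biogenesis, 7 were lower and 1 higher at 7 days, where 24.3% of all genes were lower and 26.4% higher. At 14 days 6 of the 11 regulators were lower, where 22.4% of all genes were lower. Ppargc1a, the coactivator PGC-1alpha, had the largest change of that list with -2.72 ± 0.50 (adjusted p = 0.0012) at 7 days and -2.47 ± 0.31 at 14 days. The nuclear receptor Ppara gave -1.66 ± 0.25 and -1.53 ± 0.09, Esrrb -1.38 ± 0.27 and Esrrg -1.31 ± 0.30 at 7 days. At 14 days the methyltransferase Mrm1 (-1.17 ± 0.21) and Fastk (-1.14 ± 0.09), the founding gene of a family of mitochondrial RNA-binding proteins, were also among the largest changes.

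In the transgenic P7 ventricle the mitochondrial changes were small and ran mostly upward. Of 29 members tested, 10 were higher and 1 was lower than in P7 controls, where 14.9% of all genes were higher and 15.8% lower, 30.7% together. Without the 6 low mRNAs 10 of 23 were higher and 0 lower. All 37 members together took 16.1, 16.9, 16.4 and 16.4% of counts in transgenic libraries against 15.9, 15.4 and 15.3% in controls, a difference of 0.885 percentage points without overlap. Taken by class, the mRNA and tRNA shares overlapped between groups and the rRNA share did not. The higher genes were both rRNAs, 5 tRNAs and 3 mRNAs. In a fit of all 27 libraries with 1 common spread, only mt-Ti of these 10 passed, with the same direction and nearly the same fold changes.

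mt-Rnr1 had 1043, 1023, 983 and 984 CPM in transgenic libraries against 563, 717 and 574 CPM in controls (log2 fold change 0.71 ± 0.07, adjusted p = 1.8e-05), and mt-Rnr2 had 3122, 3360, 3046 and 3045 CPM against 2145, 2525 and 2157 CPM (0.47 ± 0.06, adjusted p = 9e-05). Every transgenic library lay above every control in both genes. There were 3.05, 3.12, 2.94 and 2.90 rRNA counts per 100 mRNA counts in transgenic libraries against 2.0, 2.53 and 2.15 in controls. Because the smaller rRNA differed more, the log2 ratio of mt-Rnr2 to mt-Rnr1 was 1.64 ± 0.06 against 1.89 ± 0.06 (SD, n = 4 and 3, exact permutation p = 0.0571, the smallest possible).

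mt-Ti had 9.39, 8.77, 12 and 7.60 CPM in transgenic libraries against 3.43, 5.81 and 5.16 CPM in controls (0.98 ± 0.18, adjusted p = 0.0012). Its neighbours mt-Tq (0.91 ± 0.18) and mt-Tm (0.73 ± 0.14) were higher as well, as were mt-Ty (0.49 ± 0.07) and mt-Tp (0.48 ± 0.06). mt-Tl1 gave 0.11 ± 0.07 and did not pass. Of the abundant mRNAs mt-Nd2 (0.31 ± 0.04), mt-Nd4 (0.27 ± 0.04) and mt-Cytb (0.15 ± 0.04) were higher, and mt-Nd1, mt-Nd5, mt-Nd6 and mt-Co1 gave 0.02 to 0.05. The lower gene was mt-Co2 (-2.86 ± 0.82), which rested on the P7 control with 647 CPM and gave 0.16 without it.

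Relative to the mRNA pool 9 members were higher and 2 lower in the transgenic libraries, where 33.7% of all genes passed and 8.68% were higher. The rRNAs gave 0.61 ± 0.08 and 0.37 ± 0.07, mt-Ti 0.88 ± 0.19, mt-Tq 0.82 ± 0.19 and mt-Tm 0.63 ± 0.14. The lower genes were mt-Co2 and mt-Ts2 (-2.97 and -1.45), and both lost their calls without the same P7 control (0.08 and -0.36), mt-Ts2 also without transgenic library 1, 2 or 3 (-1.54 to -1.20).

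Of the 73 nuclear subunits 3 were higher and 29 lower in transgenic libraries (median -0.11), including 12 of 14 of complex V as lower, where 14.9% of all genes were higher and 15.8% lower. In the same libraries mitochondrial mRNA per CPM of nuclear subunits was 5.51 ± 0.141 against 4.62 ± 0.150 (SD, n = 4 and 3), without overlap. Of 42 genes for mitochondrial RNA handling, 1 was higher and 5 lower, a smaller share in each direction than over all genes. Rexo2, a mitochondrial ribonuclease, was higher (0.52 ± 0.07), while the rRNA methyltransferase Nsun4 (-0.54 ± 0.06), Mrm1 (-0.35 ± 0.07) and Lrpprc (-0.25 ± 0.05) were lower. Of the biogenesis list 1 was higher and 5 lower, with Esrrb at 0.43 ± 0.13, Ppara at -0.62 ± 0.13 and Ppargc1b at -0.54 ± 0.09. Ppargc1a (-0.17), Polrmt (-0.11) and Tfam (-0.08) did not pass. Cardiomyocyte markers summed to 57465 to 64029 CPM in transgenic libraries against 58896 to 59886 CPM in controls (5 higher and 5 lower of 16), and fibroblast markers to 7636 to 8964 against 6225 to 7293 CPM (7 of 11 higher, with 9 of 10 macrophage markers higher).

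In control ventricle the mitochondrial share was larger at each later age, while the rRNA share was lowest at P7. The 37 members held 12.1 ± 1.28% of counts at P1, 15.5 ± 0.342% at P7 and 28.1 ± 1.55% at P60 (SD, n = 4, 3 and 7, both sets of P60 controls together), with no overlap between neighbouring ages. The mRNA share was 11.4%, 15.2% and 26.4%. The rRNA share was 0.585%, 0.338% and 1.56%, and the tRNA share 0.0389%, 0.0269% and 0.0928%. There were 5.25 ± 1.56 rRNA counts per 100 mRNA counts at P1, 2.23 ± 0.271 at P7 and 5.90 at P60.

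From P1 to P7, 7 of 31 members were higher and 7 lower, where 12.3% of all genes were higher and 11.2% lower, 23.5% together. Without the 6 low mRNAs 6 of 25 were higher and 7 lower. mt-Rnr1 had 679, 1159, 698 and 911 CPM at P1 and 563, 717 and 574 CPM at P7 (log2 fold change -0.48 ± 0.16, adjusted p = 0.047). Its groups overlapped and the call was lost without P7 control 1 (-0.41) or 3 (-0.42) or P1 control 2 (-0.31) or 4 (-0.45). mt-Rnr2 had 4027, 4824, 3484 and 3554 CPM at P1 and 2145, 2525 and 2157 CPM at P7, without overlap (-0.80 ± 0.14, adjusted p = 0.0011). mt-Tl1, the tRNA just after mt-Rnr2, had 109, 108, 68.6 and 69.6 CPM at P1 and 27.1, 25.8 and 29.2 CPM at P7, the lowest fold change of all members (-1.69 ± 0.20, adjusted p = 4.4e-05).

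Of the block between mt-Nd2 and mt-Co1, mt-Tw (-1.12 ± 0.28), mt-Ta (-0.91 ± 0.27), mt-Tn (-1.23 ± 0.26) and mt-Tc (-1.28 ± 0.23) were lower at P7, and mt-Ty was at 0.22 ± 0.23. The call of mt-Ta was lost without any of the P7 controls or without P1 control 2 (-1.0 to -0.60), and that of mt-Tw without P7 control 3 (-0.97). mt-Tm was higher (1.16 ± 0.27), with 1.41, 1.89, 1.47 and 3.20 CPM at P1 and 4.38, 3.89 and 5.12 CPM at P7. Of the mRNAs mt-Nd6 (1.0 ± 0.15), mt-Nd5 (0.85 ± 0.12), mt-Nd4 (0.76 ± 0.14), mt-Cytb (0.65 ± 0.13) and mt-Co1 (0.48 ± 0.12) were higher at P7. mt-Atp8 also passed as higher, but gave 0.81 without P7 control 3 and lost its call without that library or any of the P1 controls.

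The makeup of the mRNA pool shifted in the same week. mt-Nd1 made up 21.7, 21.2, 20.1 and 20.3% of mitochondrial mRNA counts at P1 and 14.2, 13.7 and 14.1% at P7. Relative to the pool it was lower at P7 (-0.58 ± 0.10), as was mt-Nd2 (-0.23 ± 0.09), while mt-Nd4 (0.31 ± 0.10), mt-Nd5 (0.38 ± 0.09) and mt-Nd6 (0.55 ± 0.14) were higher. Among these 5 the lower genes lie nearer to the rRNAs, an order that was not tested. The call of mt-Nd2 was lost without any of the P7 controls or P1 control 1 (-0.24 to -0.20). In this fit 5 members were higher and 10 lower, where 3.46% of all genes were higher and 53.5% lower, 57% together, so that lower genes were no more frequent among the members than among genes at large.

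From P7 to P60, 26 of 31 members were higher and none lower, where 69.3% of all genes passed and 33.3% were higher. Without the 6 low mRNAs 22 of 25 were higher. mt-Ti had 3.43, 5.81 and 5.16 CPM at P7 and 79.6 to 158 CPM at P60 with a median of 120 CPM, the largest fold change of the members (4.63 ± 0.26, adjusted p = 1.2e-09). mt-Tq gave 4.52 ± 0.34, mt-Tm 3.54 ± 0.25, mt-Rnr1 3.16 ± 0.18 and mt-Rnr2 2.72 ± 0.15. The abundant mRNAs lay lower, from 1.03 ± 0.15 for mt-Nd6 to 1.78 ± 0.10 for mt-Nd2, with mt-Co1 at 1.43 ± 0.11. No P60 control fell within the P7 range for these genes.

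Relative to the mRNA pool, 17 members were higher and 2 lower at P60, where 4.92% of all genes were higher and 85.6% lower, 90.6% together. mt-Ti gave 3.22 ± 0.29, mt-Tq 3.10 ± 0.37, mt-Tm 2.12 ± 0.22, mt-Rnr1 1.75 ± 0.20 and mt-Rnr2 1.30 ± 0.16. The block from mt-Tw to mt-Ty was higher in 5 of 5 genes (0.69 to 1.69), and 12 of the 14 named tRNAs were higher. mt-Nd2 (0.37 ± 0.08) was the only abundant mRNA to pass as higher and mt-Nd6 (-0.37 ± 0.13) the only one to pass as lower. The call of mt-Nd6 was lost without P7 control 2 (-0.32), and the other lower gene, mt-Co2 (-2.04), gave 1.01 without that library.

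The rRNA to mRNA balance was thus lowest at P7 among the control ages. The mean log2 ratio of mt-Rnr2 to mt-Co1 was -3.24 ± 0.35 at P1, -4.52 ± 0.16 at P7 and -3.23 ± 0.13 at P60 (SD, n = 4, 3 and 7), without overlap between neighbouring ages. Exact permutation p was 0.0571 for P7 against P1 and 0.0167 for P60 against P7, each the smallest possible. The log2 ratio of mt-Rnr2 to mt-Rnr1 was lower at each step without overlap, with 2.23 ± 0.27 at P1, 1.89 ± 0.06 at P7 and 1.43 ± 0.13 at P60. Set beside these ages, mt-Rnr2 to mt-Co1 averaged -4.03 and -4.04 in the libraries labelled KO at 7 and 14 days, and -4.09 in the transgenic libraries. The knockout comparisons and the comparison of P60 with P7 share the P60 controls. The transgenic comparison shares the P7 controls with the age comparisons. These values are therefore given side by side only.

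Of the nuclear subunits 20 of 73 were higher and 2 lower at P7 against P1 (median 0.15), and 70 were higher and 2 lower at P60 against P7 (median 0.85). Mitochondrial mRNA per CPM of nuclear subunits was 3.56 ± 0.402 at P1, 4.62 ± 0.150 at P7 and 6.94 ± 0.489 at P60. Of the 42 RNA-handling genes, 1 was higher and 6 lower at P7, where 12.3% of all genes were higher and 11.2% lower. At P60 30 were higher and 3 lower (median 0.51), where 33.3% of all genes were higher and 36% lower. At P7 the nuclease genes Pde12 (-0.39) and 1110008L16Rik (-0.57 ± 0.13) and the helicase Supv3l1 (-0.38) were lower. Esrrb (-0.77 ± 0.10) and Esrrg (-0.48 ± 0.10) of the biogenesis list were lower too, and Mrm1 (0.42 ± 0.12) was higher. None of Ppargc1a, Polrmt, Tfam and Lrpprc passed at P7. At P60 Tfb2m, a transcription initiation factor (1.52 ± 0.10), Mterf2 (1.44 ± 0.13), Lrpprc (0.77 ± 0.10), Polrmt (0.37 ± 0.09) and Tfam (0.28 ± 0.07) were higher and Primpol, a primase, was lower (-1.18 ± 0.16). Of the 11 genes of the biogenesis list 5 were higher and 5 lower at P60, against the same 33.3% and 36%, with Ppargc1a at 2.31 ± 0.36, Esrrb at 2.20 ± 0.09 and Ppara at 1.39 ± 0.15. Cardiomyocyte markers were higher in 16 of 16 and fibroblast markers lower in 9 of 11 at P60, and the part of cell composition in the age series was not tested.

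Under another scaling the median of all genes shifted. With total counts in place of TMM factors, the median of all genes was 0.45 at 7 days and 0.39 at 14 days in libraries labelled KO, -0.65 for P60 against P7, and -0.02 for the transgenic libraries, against 0.03, 0.01, -0.05 and -0.00. The higher genes then made up 83.55% of all calls at 7 days, 81.91% at 14 days, 18% for P60 against P7, 41.02% for P7 against P1 and 42.31% for the transgenic libraries, against 52.01%, 49.4%, 48.07%, 52.45% and 48.61% with TMM. The median of the RNA-handling list turned sign to -0.09 for P60 against P7, that of the endothelial markers to 0.07 for the libraries labelled KO at 14 days, and the nuclear subunits kept their sign in each comparison (-0.66, -0.51, 0.25, 0.10 and -0.14 in the same order). Of the mitochondrial calls, mt-Tp at 7 days (-0.44) and mt-Nd6 (-0.28) and mt-Atp6 (-0.60) at 14 days were lost under that scaling, with the same direction.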

How the data were processed

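Total RNA of mouse ventricle was extracted with TRIzol and a column kit and sequenced by BGI on its DNBseq platform, per the labels' protocols. The authors deposited a table of counts, in which each value is a whole number of reads assigned to a gene. Per the submitters' processing notes, STAR, featureCounts, DESeq2 and Salmon were used with builds named GRCm38 and mm10, without roles or versions. Not given in the sources used here: RNA selection or depletion, annotation, strand setting and treatment of reads with several matches.

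Ensembl identifiers were matched to GENCODE M21 (55141 of 55487 found, 346 not). Each comparison was fitted over all genes with edgeR 4.0.16 in R 4.3.3 (TMM, filterByExpr, quasi-likelihood F test) on the libraries of its groups, both sets of P60 controls serving the age comparison, and p-values were Benjamini-Hochberg adjusted over all genes tested with a threshold of 0.05. CPM values use TMM library sizes. Fits relative to the mitochondrial mRNA pool used the summed counts of the 13 mRNAs as library size. Log2 ratios of 2 genes were compared by exact two-sided permutation. The scatter of a gene within groups was taken on log2 CPM with a pseudocount of 0.1 CPM. Nuclear copies were searched among the annotated GENCODE M21 transcripts, not in the whole genome, at 90% identity over at least 100 bases, and called near-identical at 99% and full-length at 98% of the member. Every pair of replicate libraries differed by more than sampling noise. Intervals of counting error play no part, since values are given per library.

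All 13 protein genes and both rRNAs were to be named, a tRNA if it averaged at least 1 CPM, and of the nuclear lists the 6 largest called changes plus Tfam, Polrmt, Lrpprc and Ppargc1a. The members and all lists were chosen with earlier results of these data known. Alternatives were total count scaling, scaling without mitochondrial genes, DESeq2 1.42.0, no filter on low counts, a single fit of all 27 libraries, each library left out in turn, libraries 1 and 5 labelled KO left out (for pool-relative fits, ratios and shares added after seeing the data), a replicate block, and a pool without mt-Co1. The scripts were tested on simulated data.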

Additional observations from a re-analysis of the deposited data

Results flagged for a closer look

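In groups of 4 to 10 libraries, 1 library was set far from the rest of its group for 15 of the 120 sets of values examined, and chance alone flags about 1 in 20. Of these, 8 were CPM values of 3 low mRNAs. mt-Co2 stood high in library 1 labelled KO at 7 days (354 CPM), library 8 labelled KO at 14 days (278 CPM) and P1 control 4 (242 CPM). mt-Co3 stood high in library 9 labelled KO at 14 days (424 CPM), P60 control 1 at 7 days (856 CPM) and transgenic library 1 (51.2 CPM). mt-Atp8 stood high in library 9 labelled KO at 14 days (33.3 CPM) and transgenic library 3 (28.6 CPM). The ratio of mt-Co3 to mt-Co1 followed in library 9 labelled KO at 14 days (0.00588), P60 control 1 at 7 days (0.00557), transgenic library 1 (0.00100) and P1 control 2 (0.00122). Among the abundant mRNAs, mt-Cytb was highest in library 6 labelled KO at 14 days (39214 CPM), mt-Nd5 lowest in P60 control 2 at 7 days (34984 CPM) and mt-Nd6 lowest in transgenic library 2 (2987 CPM). No cause was tested for any of these values.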

How the results depend on the processing

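The counts of lower members in the libraries labelled KO and of higher members at P60 stayed within 1.5 times under each alternative run. When 1 library was left out in turn, 25 to 28 were lower at 7 days, 24 to 27 lower at 14 days and 26 to 28 higher at P60. The transgenic comparison and the first postnatal week depended more on the processing. In the transgenic libraries 1 member was higher in the single fit of all 27 libraries, against 10, and 0 were lower there, 4 without the filter on low counts and 0 without the 6 low mRNAs (a choice made after seeing the data), against 1; with 1 library left out the lower count was 0 to 3. At P7 against P1, 12 members were higher without the filter, against 7, and 4 to 7 were lower with 1 library left out. DESeq2 called 1 member as higher at 14 than at 7 days, against 0. 4 values turned sign with 1 library left out: mt-Co2 in the transgenic libraries (-3.39 to 0.16), mt-Co2 relative to the mRNAs there (-3.50 to 0.0811) and at P60 against P7 (-2.57 to 1.01), and mt-Atp8 relative to the mRNAs at 14 days (-0.14 to 2.48); the cause was not tested. Libraries with the same replicate number did not deviate together (correlations -0.207 to 0.0818), though groups this small cannot exclude a pairing by number. With the replicate block 26 members were lower at 7 days and 28 at 14 days, 11 were higher and 1 lower in transgenic libraries, 5 and 5 at P7, and 26 higher at P60, and mt-Atp8 relative to the mRNAs turned to -0.0817 at 14 days. No block was run for the shares, which have no test, or for the difference between the 2 times. Values of genes with few counts, mt-Atp8 and the 8 low tRNAs above all, are uncertain, and the cause of their low counts was not tested.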
